A study of Mus musculus with 16 samples.

Results

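Lysosome genes and the transcription factors of the TFEB-TFE3 family were followed across organoids that carried or lacked Atg16l1, with and without interleukin-22 (IL-22). The group held 40 genes of 49585 in the count table, listed by name for their role in the lysosome. No measured value entered the rule, but the list was chosen with earlier results of these data known. They comprised 3 transcription factors, 7 membrane proteins, 9 proteases, 7 glycosidases, 7 genes of lipid handling (with progranulin, Grn) and 7 genes of the proton pump. Of the 40, 39 had enough counts to be tested, and Mitf did not.

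The lysosome is the acidic compartment in which cells break down proteins, sugars, lipids and the cargo of autophagy. Its hydrolases work at low pH, which a multi-subunit proton pump in the membrane maintains. TFEB, TFE3 and MITF are related transcription factors that move to the nucleus when the nutrient-sensing kinase mTORC1 is inactive, and they bind an E-box in the promoters of many lysosome and autophagy genes. ATG16L1 belongs to the complex that attaches LC3 to autophagosome membranes, upstream of the delivery of cargo to the lysosome. IL-22 is a cytokine that acts on intestinal epithelium mainly through STAT3.

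RNA was sequenced from 16 cultures of mouse small-intestinal organoids, in 4 groups of 4. The fl/fl groups came from cre-negative Atg16l1 fl/fl littermates and the ΔIEC groups from Atg16l1 fl/fl mice whose villin-cre transgene deletes the gene in intestinal epithelial cells, all on a C57BL/6 background and aged 8 to 12 weeks. In each genotype 1 group was untreated and 1 received IL-22 at 10 ng/ml for 24 h. Each genotype was represented by 2 organoid lines with 2 cultures per line and treatment, so the genotype and the lines that carry it cannot be told apart, and p-values measure the spread between cultures of these lines. In what follows the values of a group are given for cultures 1 to 4, of which 1 and 2 came from the first line of that genotype and 3 and 4 from the second.

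The cultures held between 2135000 and 5574860 counts on genes. Atg16l1 stood at 31.6 to 51.8 CPM (the count scaled to the size and composition of the library) in the 8 fl/fl cultures and at 0.289 to 5.96 CPM in the 8 ΔIEC cultures. The STAT3-driven genes Reg3b, Reg3g and Socs3 rose with IL-22 in both genotypes, Reg3b from a mean of 12.8 to 19161 CPM in fl/fl and from 11.2 to 26824 CPM in ΔIEC. The labelled tissue was matched by 8 of 8 epithelial markers that passed the filter on low counts. All 10 stromal markers stayed at 3 counts or fewer in every culture, as did 9 of 12 macrophage markers. The exceptions among the latter were Csf1r, Mrc1 and Itgam.

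Because TFEB and TFE3 read an E-box, the promoter windows of the members were searched for it. RefSeq gave windows of 300 bases (250 before to 50 after a transcript start, build GRCm38.p6) for 34 of the 40 members, 45 windows in all. The 7-base form TCACGTG, read on both strands, lay in the windows of 12 of the 34 members (35.3%), against 7.07% of 9290 tested genes with a window and 4.29% of all 27025 genes. The shorter core CACGTG, which it contains, lay in 13 of 34 members (38.2%) against 12% of tested genes. The palindrome TCACGTGA, in turn a longer form of the 7 bases, lay in 7 members (20.6%) against 2.23% of tested genes. These matches describe letters in a window and not bound sites.

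The stretches of 30 bases around the match nearest to the start are shown, on the strand of the gene, for the 12 members that hold one. Capitals mark the match, and the whole 8 bases are in capitals where the palindrome is present.
Glb1: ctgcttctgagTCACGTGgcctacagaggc
Lgmn: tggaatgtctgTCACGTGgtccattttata
Cln3: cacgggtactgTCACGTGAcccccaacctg
Lamp1: acgtgaccacaTCACGTGcggaacggagcc
Mcoln1: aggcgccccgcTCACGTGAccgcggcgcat
Ctsa: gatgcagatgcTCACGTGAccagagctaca
Ctsd: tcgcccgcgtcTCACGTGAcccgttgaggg
Gaa: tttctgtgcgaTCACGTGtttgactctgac
Gla: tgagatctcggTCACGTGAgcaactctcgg
Naglu: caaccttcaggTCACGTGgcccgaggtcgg
Atp6v0d1: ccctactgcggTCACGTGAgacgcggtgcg
Atp6v1a: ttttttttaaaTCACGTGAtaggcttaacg

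The stretches of Glb1 (chr9:114401018-114401047, plus strand), Lgmn (chr12:102439124-102439153, minus strand) and Cln3 (chr7:126583340-126583369, minus strand) belong to members whose expression changed in the comparisons described next. In Glb1 the first base of the core CACGTG was 48 bases before the start, and in Lgmn it was 49 bases before it. The Lgmn match lay in the window of the downstream of its 2 RefSeq starts, and the window of the upstream start held none. Lamp1 had 4 matches within 61 bases of its start, the most of any member. Of the 13 members with a window that changed in at least 1 comparison, 3 held TCACGTG, and of the other 21 members 9 did.

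**Figure D1:**
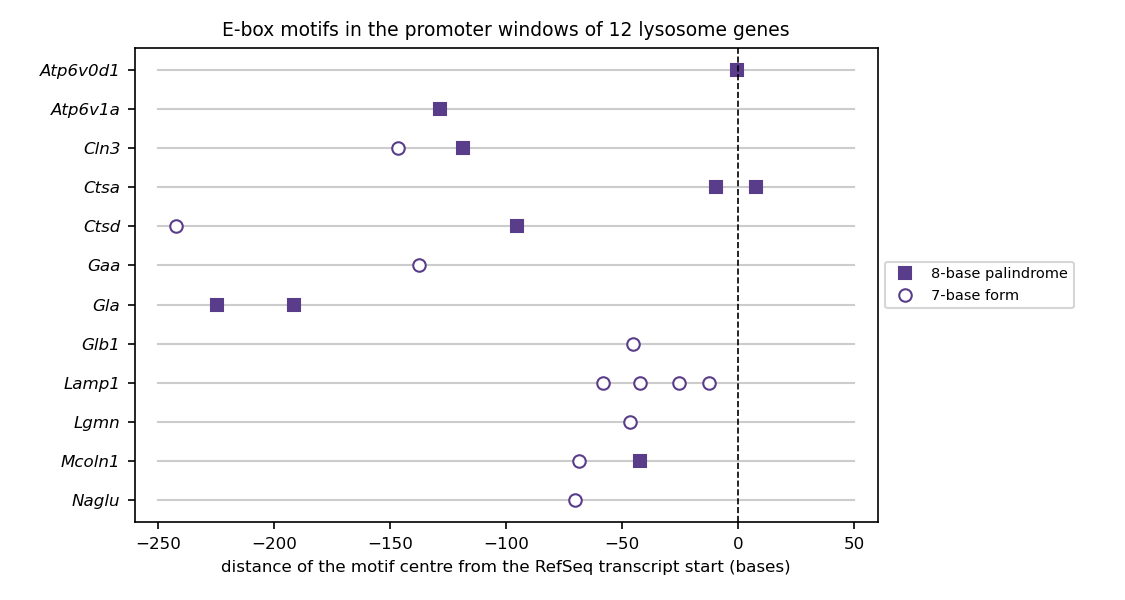
Position of each TCACGTG match in the promoter windows of the 12 members that hold one, as the distance in bases of the match's centre from the RefSeq transcript start (dashed line). Filled squares are the 8-base palindrome and open circles the 7-base form; the centres of the 20 matches run from -242.5 to 7.5, and Lamp1 carries 4 of them.

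The window of Ppt1, which rose most in ΔIEC organoids, held no E-box core. The 250 bases before the start are shown for Ppt1 (chr4:122835977-122836226, plus strand), for Lgmn at its downstream start (chr12:102439093-102439342, minus strand) and for Glb1 (chr9:114400828-114401077, plus strand), with E-box matches in capitals. The STAT motif TTCNNNGAA, a palindrome searched in the same windows, was found in 1 of the 34 members (Cln3), which is 2.94%, against 8.13% of tested genes, and in none of these 3 sequences.
Ppt1: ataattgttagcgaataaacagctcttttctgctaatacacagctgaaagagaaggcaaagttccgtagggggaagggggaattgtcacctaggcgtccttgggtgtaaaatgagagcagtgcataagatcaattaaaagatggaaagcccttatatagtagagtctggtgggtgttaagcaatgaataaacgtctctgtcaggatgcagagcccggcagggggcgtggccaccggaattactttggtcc
Lgmn: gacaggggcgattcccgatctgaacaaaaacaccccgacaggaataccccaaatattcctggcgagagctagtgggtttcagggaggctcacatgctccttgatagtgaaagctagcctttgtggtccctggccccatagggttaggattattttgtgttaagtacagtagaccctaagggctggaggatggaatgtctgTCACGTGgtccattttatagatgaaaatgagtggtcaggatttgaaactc
Glb1: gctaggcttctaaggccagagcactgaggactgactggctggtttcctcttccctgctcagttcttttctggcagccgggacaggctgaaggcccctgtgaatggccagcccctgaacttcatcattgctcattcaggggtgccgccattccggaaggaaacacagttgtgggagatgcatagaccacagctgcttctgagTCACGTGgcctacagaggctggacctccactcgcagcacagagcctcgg

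The members were expressed at very different levels. Per kilobase of exon, Lamp1, the main glycoprotein of the lysosomal membrane, led the untreated fl/fl cultures at 226 CPM per kilobase, followed by the saposin precursor Psap at 163, the carboxypeptidase Ctsz at 154 and cathepsin B (Ctsb) at 103. The transcription factors were near the bottom of the order, Tfe3 at 3.79 and Tfeb at 3.03 CPM per kilobase. Mitf had at most 3 counts in any culture, so its presence was not detectable at this depth. As a share of the scaled counts the 40 genes together had a mean of 0.501% without and 0.514% with IL-22 in fl/fl cultures. In ΔIEC cultures these shares were 0.433% and 0.463%.

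The first comparison asked how lysosome genes responded to IL-22 in organoids with intact Atg16l1. The response was split between genes: 4 of the 39 tested members rose and 2 fell, at an adjusted p under 0.01 (edgeR quasi-likelihood test, Benjamini-Hochberg adjustment over 12559 genes). Of all genes tested, 10.6% rose and 10.2% fell. The median log2 fold change of the members was 0.01, beside -0.05 for all genes. Lgmn, Ppt1, Tfe3 and Gusb were the 4 that rose, and Npc2 and Psap the 2 that fell. The untreated and treated groups did not overlap for 10 of the 39 members (25.6%), beside 30.9% of all genes.

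In ΔIEC organoids 7 of the 39 members rose with IL-22 and 2 fell, where 9.83% of all genes rose and 7.65% fell. The 6 genes called in fl/fl were also called, in the same direction, among the 9 of ΔIEC. Of all genes 1622 were called in both in the same direction, out of 2608 called in fl/fl and 2195 in ΔIEC. The cathepsins Ctss, Ctsl and Ctsz were the other 3. The median of the members was 0.06, beside -0.01 for all genes. The 2 groups did not overlap for 16 of 39 members (41%), against 27.3% of all genes. Across the 39 members the log2 fold changes of the 2 genotypes, which share no culture, had a Pearson correlation of 0.91, beside 0.86 over all 12559 genes. Lgmn and Ppt1, with the largest values in both genotypes, weigh heavily in the members' correlation, which was not computed without them. The sign was the same for 34 of 39 members (87.2%), beside 79.2% of all genes.

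**Figure D2:**
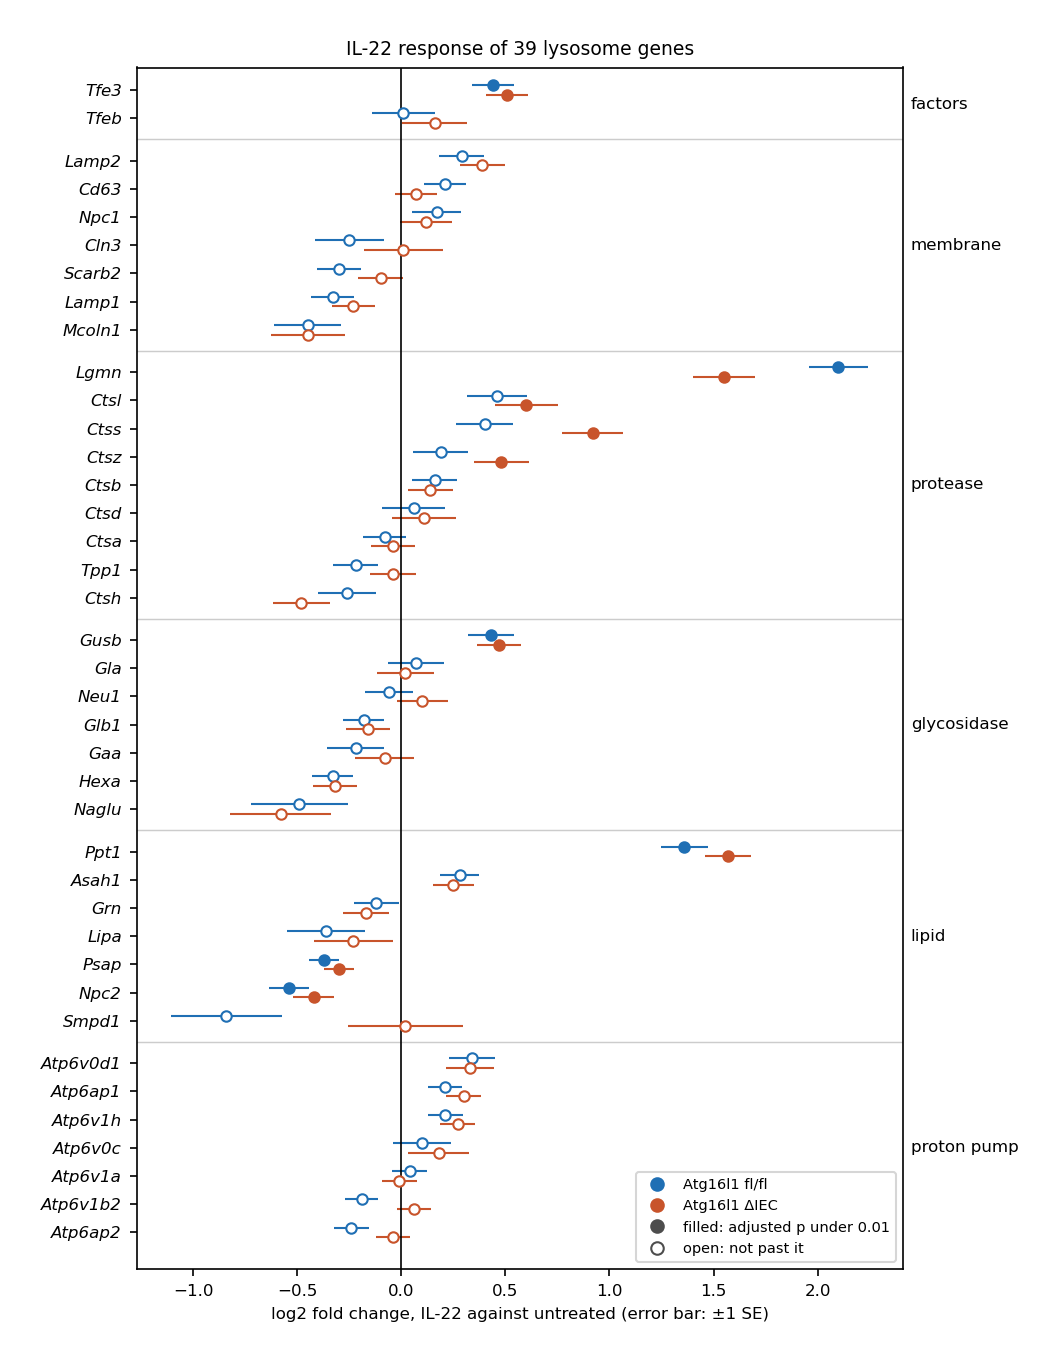
Log2 fold change with IL-22 for each of the 39 tested members (x axis; error bar, 1 standard error on each side) in fl/fl (blue) and ΔIEC (orange) organoids, grouped by role. Filled points passed an adjusted p of 0.01; Lgmn and Ppt1 stand apart on the right in both genotypes, and no proton pump gene is filled.

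Among the transcription factors, Tfe3 rose and Tfeb did not pass the test. Tfe3 (chrX:7762560-7775202) read 40.3, 34.2, 29.9 and 35.8 CPM in untreated fl/fl cultures and 51.9, 47.2, 45.4 and 48.5 CPM with IL-22. In ΔIEC it read 34.7, 38.6, 34.2 and 31.2 CPM untreated and 46.6, 47.7, 55.3 and 48.9 CPM with IL-22. Every treated culture was above every untreated culture of its genotype. The log2 fold change was 0.44 ± 0.0994 (SE, n = 4 per group; edgeR adjusted p = 0.00186) in fl/fl and 0.51 ± 0.101 (edgeR adjusted p = 0.000678) in ΔIEC. The fl/fl call was lost without either fl/fl line, with an edgeR adjusted p of up to 0.0544, and the ΔIEC call without the second ΔIEC line, with 0.142.

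Tfeb (chr17:47737030-47792419) had 21.9, 15.6, 15.4 and 15.8 CPM in untreated fl/fl, and 13.9, 17.1, 17.3 and 21 CPM in treated fl/fl cultures. In ΔIEC its values were 15.1, 17, 13.7 and 14.1 CPM untreated and 15, 16.2, 17.5 and 18.5 CPM with IL-22. The groups overlapped in both genotypes. Its log2 fold change was 0.01 ± 0.15 (edgeR adjusted p = 0.954) in fl/fl and 0.16 ± 0.156 (edgeR adjusted p = 0.493) in ΔIEC. Mitf was at 0 in all 4 treated fl/fl cultures and at most at 1.25 CPM elsewhere.

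The strongest response in fl/fl was that of Lgmn (chr12:102394084-102439813), which encodes legumain, a protease that cuts after asparagine and matures several cathepsins. Untreated fl/fl cultures had 59.3, 57.4, 38.5 and 36.1 CPM, and treated ones 211, 231, 195 and 190 CPM. Untreated ΔIEC cultures had 37.5, 40.6, 45 and 51.9 CPM, and treated ones 104, 124, 142 and 136 CPM. Treated and untreated cultures were far apart in both genotypes, and the treated ΔIEC cultures all lay under the treated fl/fl cultures. The increase was 4.28-fold in fl/fl (log2 2.10 ± 0.143, edgeR adjusted p = 1.76e-09) and 2.93-fold in ΔIEC (log2 1.55 ± 0.147, edgeR adjusted p = 1.42e-07).

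Of the 8 other proteases, the 3 cathepsins named above rose in ΔIEC. Cathepsin S (Ctss), best known for processing the invariant chain of MHC class II, read 36.8, 45.9, 31.3 and 33.7 CPM in untreated fl/fl and 50.3, 48.6, 48.6 and 49.1 CPM in treated fl/fl cultures. In ΔIEC it went from 27.8, 24.6, 24.9 and 22 CPM to 64.8, 44, 39.3 and 43.4 CPM. The groups did not overlap in either genotype. Only the ΔIEC difference passed the threshold in this fit (log2 0.92 ± 0.146, edgeR adjusted p = 7.55e-05). The fl/fl difference was 0.40 ± 0.136 (edgeR adjusted p = 0.0313). It passed when cultures were compared within their line, as described below (log2 0.40, edgeR adjusted p = 0.00433).

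Cathepsin L (Ctsl) had 52.6, 59.3, 60.7 and 65.2 CPM in untreated and 83.8, 84.4, 90.4 and 99.5 CPM in treated ΔIEC cultures. In fl/fl it had 115, 97, 68.5 and 70.4 CPM untreated and 141, 140, 98.7 and 108 CPM with IL-22, with the first line above the second under each treatment. The log2 fold change was 0.60 ± 0.152 in ΔIEC (edgeR adjusted p = 0.00546) and 0.46 ± 0.144 in fl/fl (edgeR adjusted p = 0.0189). Compared within lines, the fl/fl rise of Ctsl also passed (log2 0.48, edgeR adjusted p = 4.75e-06). The ΔIEC call was lost in 7 of the 20 fits that left out a culture or a line, with an edgeR adjusted p of up to 0.123 without the second ΔIEC line. Ctsz passed narrowly in ΔIEC, by 0.48 on the log2 scale (edgeR adjusted p = 0.00924), with groups that overlapped. It was past the threshold in 11 of 28 other fits and lost it in 14 of the 20 fits that left out a culture or a line. In the fit of the 4 groups cathepsins A, B, D and H and the peptidase Tpp1 passed in neither genotype. Their log2 fold changes ran from -0.48 (Ctsh, ΔIEC) to 0.16 (Ctsb, fl/fl).

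Among the genes of lipid handling Ppt1 (chr4:122836242-122859175) rose most. It encodes palmitoyl-protein thioesterase 1, which removes fatty acids from proteins during their breakdown. Its values were 49.1, 50.3, 42.6 and 47.6 CPM in untreated fl/fl cultures and 119, 118, 116 and 136 CPM with IL-22. They were 59.7, 55.9, 61.1 and 59.4 CPM in untreated ΔIEC cultures and 209, 191, 133 and 166 CPM with IL-22. Every treated culture was above every untreated one, and the increases were 2.56-fold in fl/fl (log2 1.36 ± 0.114, edgeR adjusted p = 3.17e-08) and 2.96-fold in ΔIEC (log2 1.57 ± 0.112, edgeR adjusted p = 2.87e-09). Ppt1 shares 129 exon bases, 3.51% of its own, with Cap1 on the opposite strand, and Cap1 rose too (log2 0.85 in fl/fl and 0.88 in ΔIEC). The strand setting of the counting was not given in the sources used here.

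The 2 members that fell with IL-22 both carry lipids or prepare them for digestion. Npc2 binds cholesterol in the lysosome lumen, and had 211, 264, 203 and 238 CPM in untreated and 179, 171, 149 and 133 CPM in treated fl/fl cultures. In ΔIEC it had 178, 190, 169 and 191 CPM untreated and 149, 131, 137 and 127 CPM with IL-22. The groups did not overlap in either genotype. The log2 fold change was -0.54 ± 0.0968 (edgeR adjusted p = 0.00026) in fl/fl and -0.42 ± 0.0986 (edgeR adjusted p = 0.00298) in ΔIEC. Leaving out a culture or a line ended the fl/fl call in 1 and the ΔIEC call in 5 of 20 fits.

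Psap encodes the precursor of the saposins, which present sphingolipids to hydrolases. It read 463, 470, 406 and 452 CPM in untreated fl/fl cultures and 368, 354, 350 and 318 CPM with IL-22. In ΔIEC it read 352, 376, 380 and 390 CPM untreated and 277, 303, 330 and 305 CPM with IL-22. Again the groups did not overlap, with log2 fold changes of -0.37 ± 0.0728 (edgeR adjusted p = 0.000659) and -0.30 ± 0.0734 (edgeR adjusted p = 0.00419). These calls were lost in 2 and 8 of the 20 fits that left out a culture or a line. The acid sphingomyelinase Smpd1, measured by 7 to 34 counts per culture, had the most negative fl/fl value of all members (-0.84 ± 0.265, edgeR adjusted p = 0.0196) and 0.02 ± 0.278 in ΔIEC, neither past the threshold.

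Gusb, the beta-glucuronidase, was the glycosidase that rose. It had 50.3, 43.4, 59.4 and 48.2 CPM in untreated and 53.8, 64, 73.4 and 74.9 CPM in treated fl/fl cultures, with overlap. In ΔIEC it had 68.6, 81.2, 78 and 73.5 CPM untreated and 107, 114, 92.2 and 105 CPM with IL-22, without overlap. The log2 fold changes were 0.43 ± 0.112 (edgeR adjusted p = 0.00641) and 0.47 ± 0.107 (edgeR adjusted p = 0.00238). In fl/fl the call was lost in 9 of the 20 fits that left out a culture or a line. In the fit of the 4 groups the other 6 glycosidases passed in neither genotype and ranged from -0.58 (Naglu, ΔIEC) to 0.10 (Neu1, ΔIEC).

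**Figure D3:**
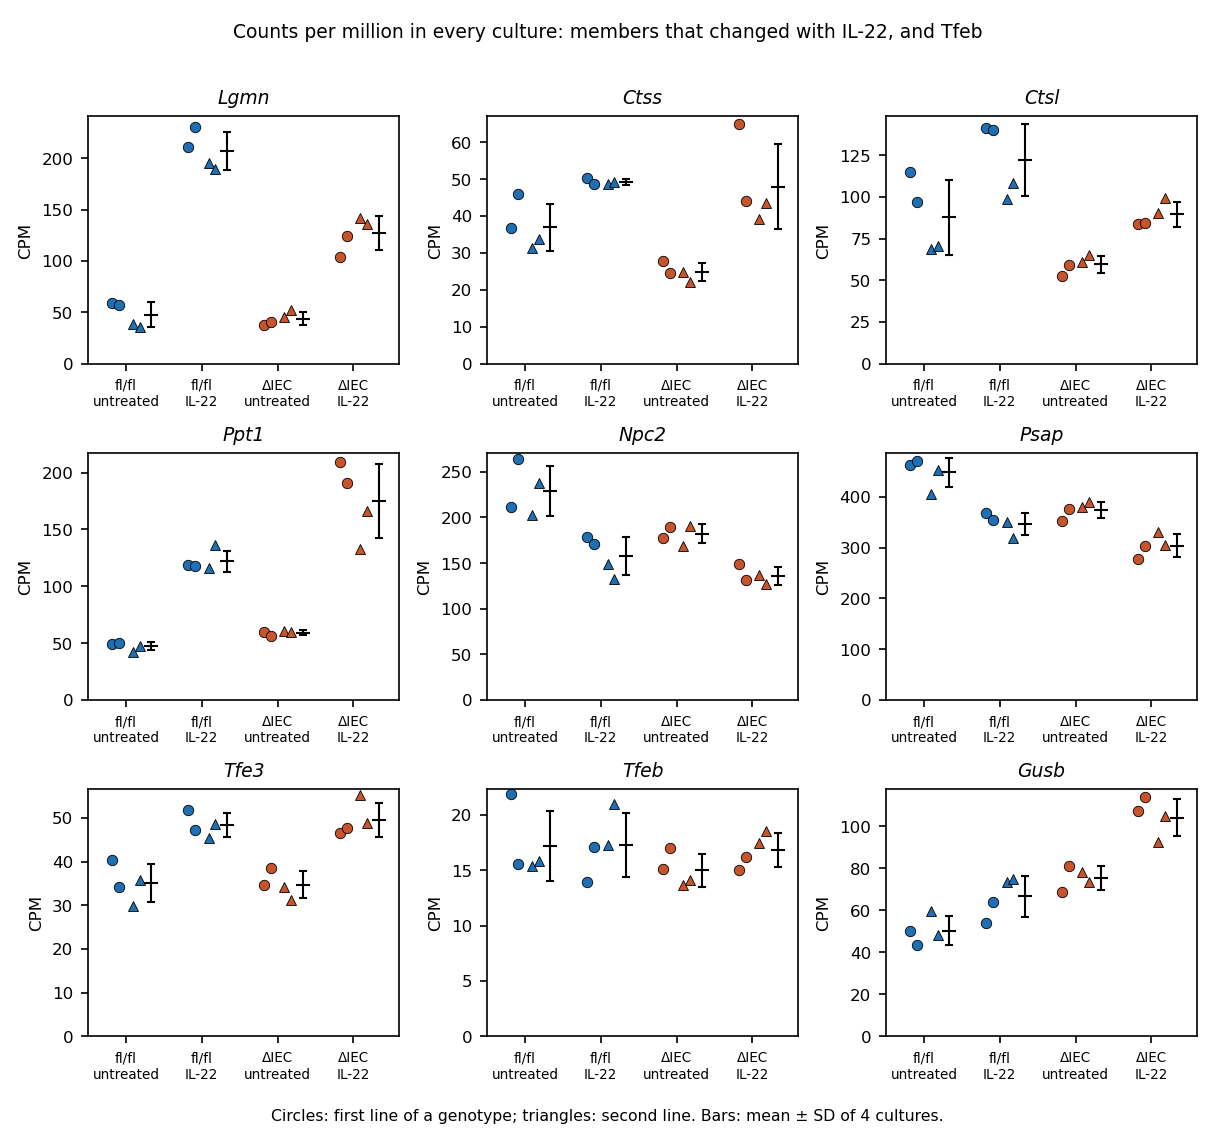
CPM in every culture of 8 members that changed with IL-22 in at least 1 genotype, and of Tfeb (y axes start at 0 and differ between panels). Circles are cultures of the first line of a genotype, triangles those of the second, and bars the mean ± SD of 4 cultures; Lgmn rises to 190 CPM or more in fl/fl and to 142 CPM or less in ΔIEC, while Tfeb overlaps between all groups.

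No membrane protein and no proton pump gene passed the threshold with IL-22 in this fit of the 4 groups. Some passed in the fit within lines described next. The membrane proteins ran from -0.45 (the calcium channel Mcoln1, in both genotypes) to 0.39 (Lamp2, ΔIEC). The proton pump genes, which acidify the lumen, ran from -0.24 (Atp6ap2, fl/fl) to 0.34 (Atp6v0d1, fl/fl), and 5 of 7 were above 0 in each genotype.

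Cultures of the same line deviated together, so the line was also entered as a block, with treated and untreated cultures compared within their own line. With this replicate block 10 members rose and 7 fell in fl/fl, where 15.0% of all genes rose and 15.6% fell. In ΔIEC 10 rose and 6 fell, where 13.8% of all genes rose and 11.7% fell. Members not called in either genotype without the block and called in both with it were Lamp2 (0.29 and 0.39) and the acid ceramidase Asah1 (0.28 and 0.25) among the higher, and Lamp1 (-0.32 and -0.23) and Hexa (-0.32 and -0.32) among the lower, with the log2 fold changes of fl/fl and ΔIEC in that order. Of these 4, Lamp2 and Hexa were also past the threshold in both genotypes with limma-voom. Other members not called without the block were called with it in 1 genotype. For fl/fl these were Atp6v0d1 (0.35) and Cd63 (0.22) among the higher, and Mcoln1 (-0.48), Scarb2 (-0.29) and Smpd1 (-0.81) among the lower. For ΔIEC they were Atp6ap1 (0.29) among the higher, and Naglu (-0.63) and Ctsh (-0.48) among the lower. With DESeq2, Atp6ap1 (adjusted p = 0.00922), Ctsh (adjusted p = 0.00842) and Lamp2 (adjusted p = 0.0067) also passed in ΔIEC. The counts also moved when lines were left out. Without the first or the second fl/fl line 1 member fell in fl/fl, where 5.09% and 3.86% of all genes fell, and without the second 2 rose, where 4.61% of all genes rose. Without the first or the second ΔIEC line no member fell in ΔIEC, where 3.62% and 3.23% of all genes fell, and 4 or 3 rose, where 5.5% and 3.83% of all genes rose. Without untreated ΔIEC culture 1, 4 members rose in ΔIEC, where 7.58% of all genes rose. Leaving out untreated fl/fl culture 3 or 4 or treated fl/fl culture 2 gave 4 members that fell in fl/fl, where 8.39%, 7.86% and 7.44% of all genes fell. In ΔIEC none fell without untreated culture 2 or 4 or treated culture 4, where 5.91%, 6.52% and 5.53% of all genes fell. There 1 member (Npc2) fell without untreated culture 3 or treated culture 1 or 2, where 6.66%, 7.42% and 7.05% of all genes fell. Without either fl/fl line, whose cultures do not enter this contrast, 4 fell in ΔIEC, where 8.69% and 8.8% of all genes fell. Lgmn and Ppt1 (both genotypes) and Ctss (ΔIEC) stayed past the threshold in all 28 other fits.

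Other cell types could be judged only by their markers, and in bulk RNA fewer cells of a type and less RNA per cell cannot be told apart. With IL-22, 7 of 12 enterocyte markers fell and 1 rose in fl/fl, and their sum went from between 4196 and 5102 CPM to between 2474 and 3119 CPM. In ΔIEC, 5 fell and 1 rose, and the sum went from between 4423 and 5325 to between 2630 and 3518 CPM. Of 7 stem cell markers 2 fell in fl/fl and 5 in ΔIEC, and none rose. Of 7 Paneth cell markers 2 rose in each genotype and none fell. Of 7 goblet cell markers 2 rose in each, while 1 fell in fl/fl and 2 in ΔIEC. Enteroendocrine markers rose for 1 of 6 in fl/fl only, and tuft cell markers for 1 of 3 in each. The part of these shifts in the lysosome result was not tested. Lgmn and Ctss are also abundant in macrophages. The sum of the 12 macrophage markers was 16.8 to 20.3 CPM in untreated and 29 to 34.9 CPM in treated fl/fl cultures, and 15.6 to 23.7 and 18.5 to 55.9 CPM in ΔIEC. Of the 12, 9 had at most 3 counts in every culture, and among these Adgre1, Ptprc, Tyrobp, Fcer1g, C1qa, C1qb and C1qc had at most 2. Mrc1 rose, from a mean of 6.21 to 19.6 CPM in fl/fl (log2 1.62, edgeR adjusted p = 0.00382) and from 9.49 to 27.7 CPM in ΔIEC (log2 1.63, edgeR adjusted p = 0.00229). The part of these markers in the rise of Lgmn and Ctss was not tested.

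The next comparison asked whether the IL-22 response of a member differed between the genotypes. No member passed the interaction test of edgeR, nor did any by limma-voom or with the replicate block. None passed by DESeq2, but that fit gave an adjusted p to only 2946 genes. Several members had none there, among them Ctss, Smpd1, Tfe3 and Tfeb, and so could not pass. Of all genes 0.0159% passed, and 0.446% with the block. At an unadjusted p under 0.05 (edgeR) there were 4 of the 39 members, beside 912 of all 12559 genes. The 4 were Lgmn, Ctss, Smpd1 and the proton pump subunit Atp6v1b2. The IL-22 effect of Lgmn was smaller in ΔIEC than in fl/fl by 0.55 ± 0.203 on the log2 scale, and that of Ctss larger by 0.52 ± 0.2 (edgeR adjusted p = 0.539 and 0.552). With the replicate block their adjusted p-values from edgeR were 0.014 and 0.112. A p that misses the threshold does not show that the responses were equal.

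The last 2 comparisons set ΔIEC against fl/fl organoids and asked how loss of Atg16l1 related to lysosome expression. In untreated cultures 6 of the 39 members were lower in ΔIEC and 1 was higher, where 5.98% of all genes were lower and 3.78% higher. The 6 were Glb1, Neu1, Hexa, Asah1, Cln3 and Atp6v1b2, and the higher one was Gusb. The log2 difference was below 0 for 32 of 39 members (82.1%), beside 52.3% of all genes, and the median was -0.20 for the members and -0.02 for all genes. For 15 of 39 members (38.5%) the genotypes did not overlap, beside 23.3% of all genes.

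With IL-22 present, 5 members were lower in ΔIEC and 2 higher, where 9.84% of all genes were lower and 9.91% higher. Glb1, Asah1, Lgmn, Neu1 and Hexa were lower, and Gusb and Ppt1 higher. Below 0 were 28 of 39 members (71.8%), beside 49.4% of all genes, with a median of -0.13 beside 0.01. The genotypes did not overlap for 8 members (20.5%), beside 29.6% of all genes. The untreated and treated comparisons share no culture but use the same 2 lines of each genotype. A difference between lines would therefore appear in both, and their agreement is not independent of the lines. Called in both, in the same direction, were 5 members, Glb1, Neu1, Hexa, Asah1 and Gusb, out of 7 called in each. Of all genes 966 were called in both in the same direction, out of 1226 called untreated and 2481 called treated.

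**Figure D4:**
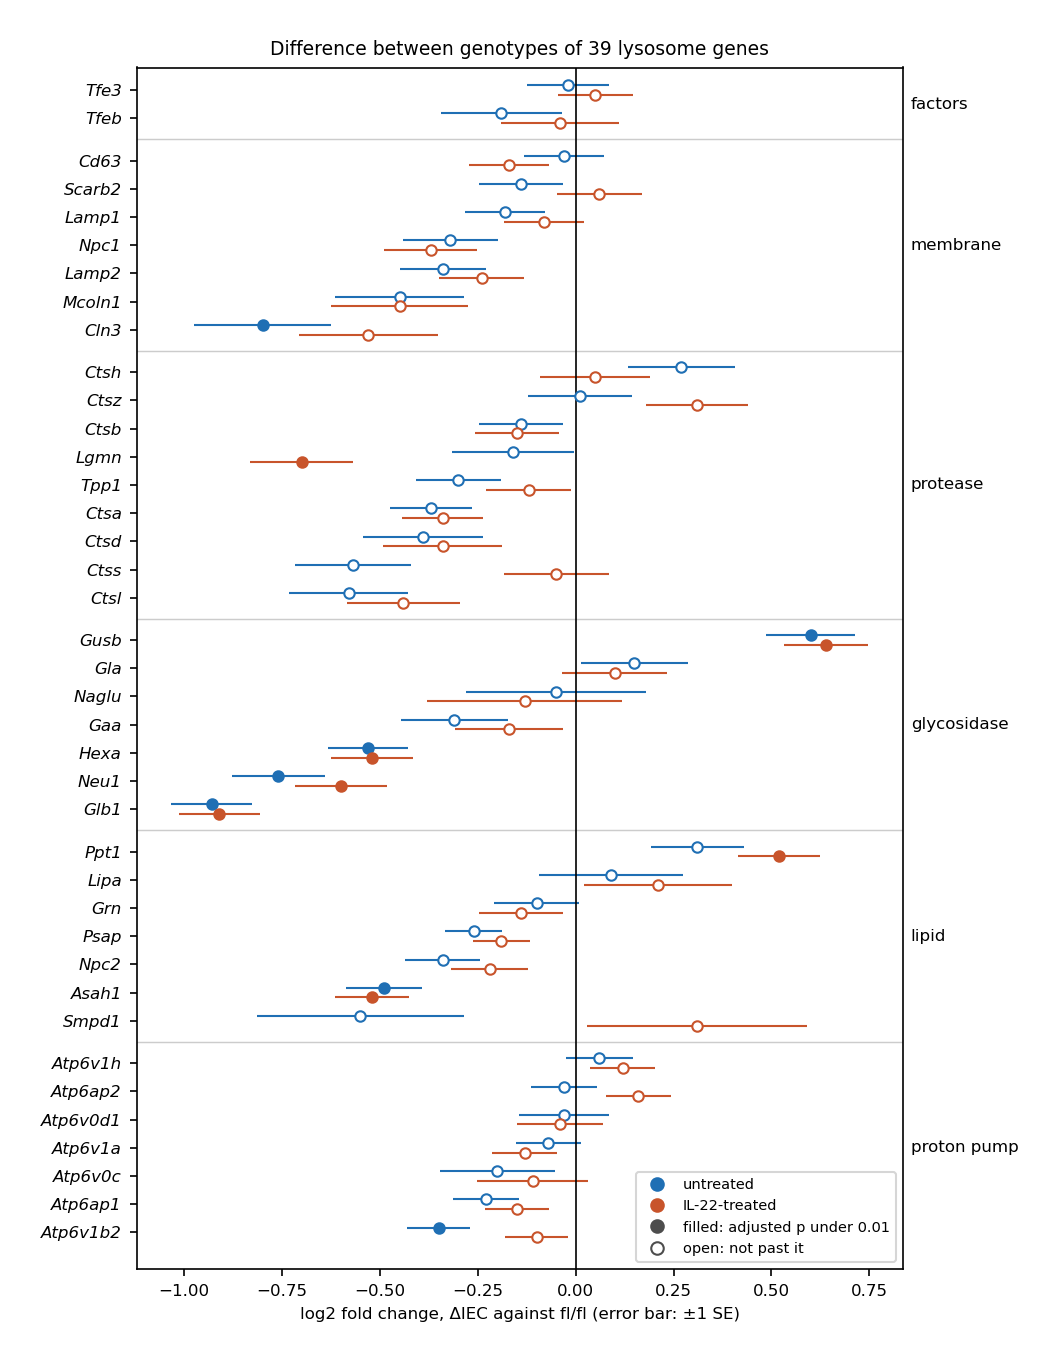
Log2 difference between ΔIEC and fl/fl for each of the 39 tested members (x axis; error bar, 1 standard error on each side) in untreated (blue) and IL-22-treated (orange) organoids, grouped by role. Filled points passed an adjusted p of 0.01; most points lie left of 0, Glb1 furthest at -0.93 and -0.91, and Gusb lies furthest right in both.

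The glycosidases showed the most of these differences. Glb1 (chr9:114401076-114474898) encodes lysosomal beta-galactosidase, which removes terminal galactose from glycolipids and glycoproteins. It read 140, 148, 114 and 127 CPM in untreated fl/fl cultures and 70.5, 70.1, 61.5 and 76 CPM in untreated ΔIEC cultures. With IL-22 it read 125, 125, 121 and 97.4 CPM in fl/fl and 53.9, 63.1, 63.8 and 67.7 CPM in ΔIEC. The lowest fl/fl culture was above the highest ΔIEC culture under each treatment, and the level in ΔIEC was 0.53 times that in fl/fl in both comparisons (log2 -0.93 ± 0.103, edgeR adjusted p = 9.19e-06, and -0.91 ± 0.103, edgeR adjusted p = 5.07e-06).

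Neu1, the lysosomal sialidase, had 122, 122, 92.9 and 106 CPM in untreated fl/fl and 57.3, 64.2, 70.8 and 71.9 CPM in untreated ΔIEC cultures. With IL-22 it had 99.8, 109, 113 and 103 CPM in fl/fl and 55.1, 68.2, 87.6 and 68.6 CPM in ΔIEC. Both pairs of groups were separate, and in treated ΔIEC cultures the third stood above the others. The log2 differences were -0.76 ± 0.119 (edgeR adjusted p = 0.000239) and -0.60 ± 0.118 (edgeR adjusted p = 0.000716). NEU1, GLB1 and the carboxypeptidase CTSA form a complex in the lysosome, and Ctsa was at -0.37 and -0.34, not past the threshold.

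Hexa, the alpha subunit of beta-hexosaminidase, had 147, 170, 121 and 130 CPM in untreated fl/fl and 103, 96.2, 101 and 93.9 CPM in untreated ΔIEC cultures. With IL-22 it had 122, 127, 105 and 98.9 CPM in fl/fl and 71.7, 80.4, 80.4 and 83.6 CPM in ΔIEC. Neither pair of groups overlapped. The log2 differences were -0.53 ± 0.102 (edgeR adjusted p = 0.00133) and -0.52 ± 0.104 (edgeR adjusted p = 0.000902). Hexa shares 255 exon bases with Tmem202 on the opposite strand and Glb1 165 with Tmppe on its own, and neither neighbour differed past the threshold between genotypes.

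Gusb went the other way from its fellow glycosidases. The values given above put every ΔIEC culture above every fl/fl culture of the same treatment. The log2 difference was 0.60 ± 0.113 in untreated (edgeR adjusted p = 0.00121) and 0.64 ± 0.107 in treated organoids (edgeR adjusted p = 0.000191). Gaa, Gla and Naglu did not pass in either comparison, with values between -0.31 and 0.15.

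In lipid handling, Asah1 (acid ceramidase, which splits ceramide) had 182, 182, 147 and 141 CPM in untreated fl/fl and 117, 108, 122 and 118 CPM in untreated ΔIEC cultures. With IL-22 it had 220, 216, 184 and 172 CPM in fl/fl and 139, 135, 136 and 142 CPM in ΔIEC. The groups were separate, although the 2 fl/fl lines were also apart from each other. The log2 differences were -0.49 ± 0.0966 (edgeR adjusted p = 0.00161) and -0.52 ± 0.0949 (edgeR adjusted p = 0.000402). Ppt1 was higher in ΔIEC with IL-22 (log2 0.52 ± 0.105, edgeR adjusted p = 0.000999), where the groups overlapped because ΔIEC culture 3 read 133 CPM and fl/fl culture 4 read 136 CPM. Untreated, Ppt1 differed by 0.31 ± 0.119 (edgeR adjusted p = 0.075).

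The membrane protein Cln3, mutated in a juvenile form of neuronal ceroid lipofuscinosis, had 24.3, 21.9, 17.2 and 24.6 CPM in untreated fl/fl and 14.1, 11.8, 12.5 and 12.5 CPM in untreated ΔIEC cultures. With IL-22 it had 24.5, 13.8, 16.5 and 21.6 CPM in fl/fl and 13.4, 11.4, 15.4 and 11.6 CPM in ΔIEC. The groups were separate without IL-22 and overlapped with it. The log2 difference was -0.80 ± 0.176 untreated (edgeR adjusted p = 0.00351) and -0.53 ± 0.178 treated (edgeR adjusted p = 0.0271). The untreated call was lost in 7 of the 20 fits that left out a culture or a line, with limma-voom (adjusted p = 0.0217) and when counts were summed per line (edgeR adjusted p = 0.0348).

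Of the proton pump genes, Atp6v1b2, the B subunit of the cytosolic domain expressed in most cells, had 154, 166, 127 and 137 CPM in untreated fl/fl and 108, 117, 112 and 120 CPM in untreated ΔIEC cultures. With IL-22 it had 133, 124, 132 and 123 CPM in fl/fl and 111, 124, 121 and 120 CPM in ΔIEC. The untreated groups were separate (log2 -0.35 ± 0.0808, edgeR adjusted p = 0.00432) and the treated groups met (-0.10 ± 0.0806, edgeR adjusted p = 0.339). Its untreated call was lost in 12 of 27 other fits. These were 8 of the 20 that left out a culture or a line, limma-voom (adjusted p = 0.0136), the fit with no filter on low counts, the fit of only the compared groups and the fit of counts summed per line (edgeR adjusted p = 0.114). The other 6 subunits ran from -0.23 (Atp6ap1, untreated) to 0.16 (Atp6ap2, treated).

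**Figure D5:**
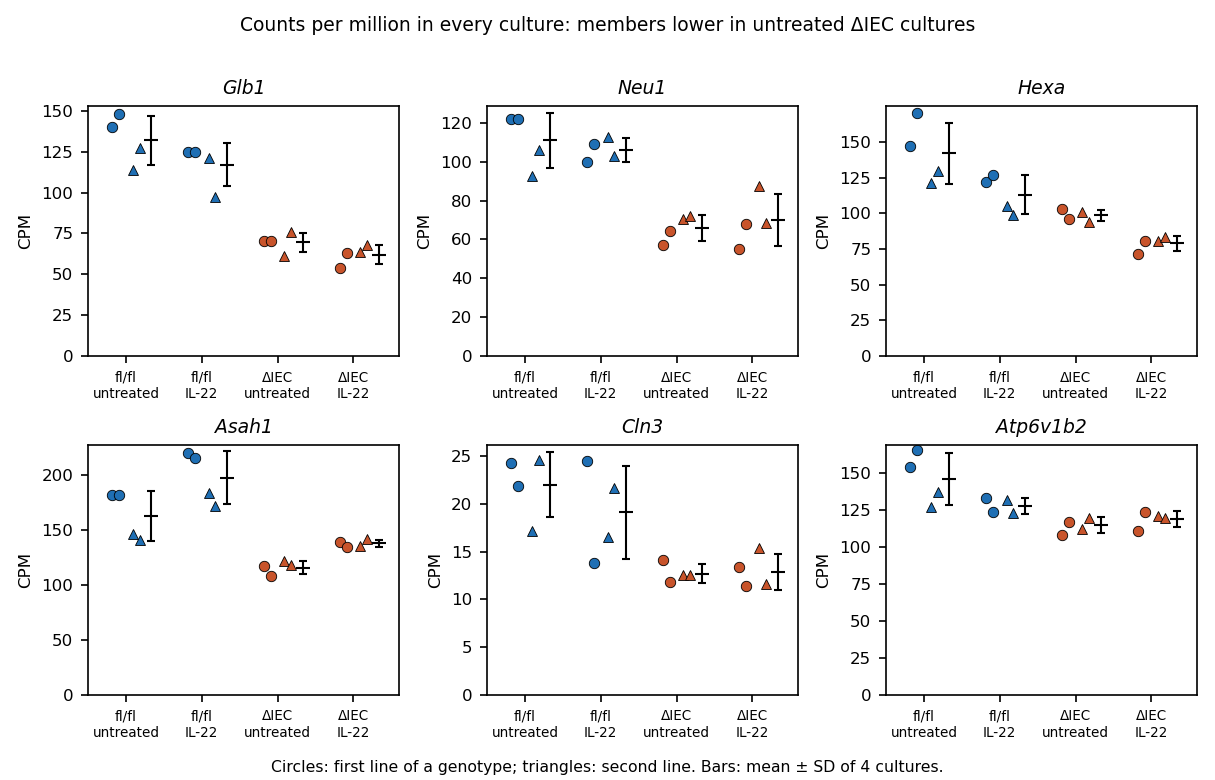
CPM in every culture of the 6 members that were lower in untreated ΔIEC than in untreated fl/fl organoids (y axes start at 0 and differ between panels). Circles are cultures of the first line of a genotype, triangles those of the second, and bars the mean ± SD of 4 cultures; for Glb1 the fl/fl cultures lie at 97.4 CPM or more and the ΔIEC cultures at 76 CPM or less.

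Among the proteases Lgmn was lower in treated ΔIEC than in treated fl/fl cultures (log2 -0.70 ± 0.132, edgeR adjusted p = 0.000513), with the values given above and no overlap, and did not differ past the threshold untreated (-0.16 ± 0.155, edgeR adjusted p = 0.506). Ctsl and Ctss missed the threshold narrowly in untreated cultures, at -0.58 (edgeR adjusted p = 0.0112) and -0.57 (edgeR adjusted p = 0.0101). The transcription factors did not pass. Tfe3 was at -0.02 and 0.05 and Tfeb at -0.19 and -0.04, untreated and treated.

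These counts depended on the lines. Without the first fl/fl line, 1 member (Glb1) was lower in untreated ΔIEC, and without the second fl/fl line 14 were. The shares of all genes that were lower in these fits were 3.31% and 7.41%. Without the first or the second ΔIEC line 2 were lower, Glb1 and Neu1, where 2.48% and 3.29% of all genes were lower. With the 2 cultures of each line summed, which leaves 2 against 2, none was lower untreated and Glb1 alone was lower with IL-22, where 0.0505% and 0.952% of all genes were lower. In treated cultures 1 member (Glb1) was lower without the first ΔIEC line, where 4.27% of all genes were lower. Gusb was not called untreated without the first ΔIEC or the first fl/fl line, and Ppt1 was not called with IL-22 without the first ΔIEC or the first fl/fl line.

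Secretory cell markers differed between the genotypes as well. Paneth cell markers were lower in ΔIEC for 3 of 7 untreated and 5 of 7 with IL-22, and their sum was 5625 to 7967 CPM in untreated fl/fl against 3168 to 4156 CPM in untreated ΔIEC cultures. With IL-22 it was 7135 to 9555 against 4002 to 4819 CPM. Goblet cell markers were lower for 4 of 7 in each comparison, and enteroendocrine markers for 1 of 6 untreated and 3 of 6 with IL-22. Of 7 stem cell markers 3 were higher in ΔIEC in each comparison, and 1 was lower with IL-22. Of 12 enterocyte markers 1 was higher in untreated ΔIEC and 3 were higher with IL-22, and none was lower. The part of all these markers in the lysosome differences was not tested.

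Other genes of the lysosome, chosen by function with earlier results of these data known, were read in the same way. Of 67 tested lysosome genes outside the group, 3 rose and 11 fell with IL-22 in fl/fl, and 3 rose and 10 fell in ΔIEC. The medians were -0.17 and -0.08, beside -0.05 and -0.01 for all genes. Of all genes 10.6% rose and 10.2% fell in fl/fl, and 9.83% rose and 7.65% fell in ΔIEC. The dipeptidyl peptidase Ctsc rose in both (1.16 and 0.90), from means of 124 to 276 and of 119 to 224 CPM, as did the intramembrane protease Sppl2a (0.66 and 0.58). The sorting adaptor Gga2 fell in both (-1.34 and -1.55). The iron transporter Slc11a2 fell in both (-1.51 and -2.51), from means of 1400 to 493 CPM in fl/fl and of 839 to 146 CPM in ΔIEC. Between genotypes, none of these 67 was higher and 10 were lower in untreated ΔIEC, among them Tmem106b (-0.56) and Fuca1 (-0.63). Of all genes 3.78% were higher and 5.98% lower there. With IL-22, 2 of the 67 were higher, among them the sulfatase activator Sumf1 (0.58), and 13 were lower, among them Cpq (-1.74) and Slc11a2 (-1.75). Of all genes 9.91% were higher and 9.84% lower in that comparison.

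Of 12 tested proton pump subunits outside the group 1 rose and none fell in fl/fl, and 2 rose and none fell in ΔIEC, of which Atp6v0a1 (0.57) had the smallest p. Called in either direction were 8.33% and 16.7% of the 12, beside 20.8% and 17.5% of all genes. Between the genotypes 1 of the 12 was lower untreated and 1, Atp6v0a2 (0.40), was higher with IL-22. Each is 8.33% of the 12, beside 9.76% of all genes called untreated and 19.8% with IL-22. Of 20 tested regulators of TFEB, the subunits and partners of mTORC1, Lamtor3 rose with IL-22 in fl/fl (0.53) and 2 fell. In ΔIEC 1 rose and 1 fell. The regulators called were thus 15% in fl/fl and 10% in ΔIEC, beside 20.8% and 17.5% of all genes. Rragd, a Rag GTPase that recruits mTORC1 to the lysosome, fell in both, from means of 92.6 to 56 CPM in fl/fl (-0.73 ± 0.0998, edgeR adjusted p = 1.55e-05) and of 69.1 to 27.9 CPM in ΔIEC (-1.32 ± 0.111, edgeR adjusted p = 3.1e-08). It was also lower in treated ΔIEC than in treated fl/fl organoids (-1), where Lamtor1, the anchor of the same machinery, was higher (0.42).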

How the data were processed

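The deposited table holds HTSeq read counts per Ensembl gene for 16 cultures; the authors trimmed reads with cutadapt and aligned them with TopHat2 to mm10 (GRCm38), per the labels and the study's methods, and no version or strand setting is given in the sources used here. The labels name the library kit differently from the study's methods. Of 49585 genes, 49326 matched a GENCODE symbol. Lines that name no gene (61.67% to 63.73% of each culture) were left out. Depth on genes was 2135000 to 5574860 counts, which limits precision for low genes, and no interval for single values is given.

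Counts were fitted with edgeR 4.0.16 (R 4.3.3; filterByExpr, TMM, quasi-likelihood test on a design of 4 groups, Benjamini-Hochberg adjustment over 12559 genes, threshold 0.01). CPM are TMM-scaled; the SE is the log2 fold change over the root of F. On simulated counts for IL-22 in fl/fl (12352 genes, 200 changed) the fit recovered 85% of changes of 1 and 29% of changes of 0.5 on the log2 scale, with 4 calls among unchanged genes. The simulated cultures were independent, without a line effect, and the changed genes were picked above a floor of counts. Real cultures had a consensus correlation within lines of 0.261, and far more genes were called. These rates therefore need not hold for the real data. Alternatives used DESeq2 1.42.0, limma 3.58.1, other filters and scalings, summed lines, left-out cultures and lines, and the organoid line as a block. Cultures of the same line number share a line by the labels, and their deviations correlated at 0.06 to 0.44, those of different lines at -0.43 to -0.08.

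Values in every culture are given for Tfeb, Tfe3 and Mitf and for up to 6 called members with the smallest p per direction of each IL-22 and genotype comparison, and for called members of the interaction. From the other lists, the 3 called genes with the smallest p per direction are named. Some of them are not reported here. Other members named for a value were chosen after their values were seen. Members and lists were chosen with earlier results of these data known. Promoters are RefSeq windows of build GRCm38.p6.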

Additional observations from a re-analysis of the deposited data

Results flagged for a closer look

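In 3 of 60 groups of 4 cultures (15 members in 4 groups) a single culture stood apart from the other 3, by the gap to its neighbour as a share of the group's range on the log2 scale, where chance gives about 3. Tfeb in untreated fl/fl culture 1 read 21.9 CPM, with a gap of 0.933 of the range. Ppt1 in treated fl/fl culture 4 read 136 CPM, with a gap of 0.852. Glb1 in treated fl/fl culture 4 read 97.4 CPM, with a gap of 0.869.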

How the results depend on the processing

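All called members kept their direction under every alternative run. With the replicate block (pairing within organoid lines) members higher and lower with IL-22 were 10 and 7 in fl/fl, and 6 were lower in ΔIEC; no other IL-22 or interaction count moved by over 1.5 times. With limma-voom and a correlation within lines the fl/fl counts were 9 and 7, where 13.7% of all genes were higher and 14% lower, and 4 were lower in ΔIEC, where 10.4% of all genes were. With only the compared groups 4 were also lower in ΔIEC, where 7.47% of all genes were. With the cultures of a line summed, 2 rose and 0 fell in fl/fl, 3 rose and 0 fell in ΔIEC, 0 were higher or lower in untreated ΔIEC than fl/fl, and 0 higher and 1 lower with IL-22. Of all genes in these fits, 2.57% rose and 1.35% fell in fl/fl, and 2.78% rose and 1.8% fell in ΔIEC. Between genotypes 0.0216% were higher and 0.0505% lower untreated, and 0.404% and 0.952% with IL-22. At an adjusted p under 0.05 the counts were 9 higher and 8 lower with IL-22 in fl/fl, 11 and 4 in ΔIEC, and 12 lower untreated and 10 lower treated between genotypes. The shares of all genes at that threshold are not given here, so these counts cannot be set against them. Leaving out a culture or a line gave 2 to 5 higher and 1 to 4 lower in fl/fl, 3 to 9 and 0 to 4 in ΔIEC, 0 to 1 higher and 1 to 14 lower in untreated ΔIEC, and 1 to 3 higher and 1 to 7 lower in treated ΔIEC. Of all genes 4.61% to 11.2% were higher and 3.86% to 10.8% lower in fl/fl, and 3.83% to 10.7% and 3.23% to 8.8% in ΔIEC. Between genotypes 0.856% to 5.4% were higher and 2.48% to 7.41% lower untreated, and 3.11% to 10.7% and 4.27% to 10.3% with IL-22. DESeq2, RLE scaling and the other filters kept every count within 1.5 times, although DESeq2 gave several members no adjusted p for the interaction. Depth limits Mitf, Smpd1 and Cln3, with few counts per culture.

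Genotype cannot be separated from line, so no paired fit exists for the genotype comparisons. On simulated counts, which held no line effect, changes of 0.5 on the log2 scale were recovered less often than changes of 1.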
